A study of Mus with 6 samples.

Results

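Synaptic vesicle and exocytosis genes encode the proteins that fill vesicles with transmitter, dock and prime them at the active zone, fuse them with the presynaptic membrane when calcium enters, and take the membrane back afterwards. They were taken as a list of 48 gene symbols, of which 47 were measured by an array row that carries that symbol alone, out of 19938 genes measured in this way. Vamp2, the main vesicle SNARE of forebrain synapses, lies on a row shared with another gene and was not analysed here. Where a gene had several rows, the brightest on average was taken.

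Hippocampal RNA of 3 control mice without swim stress and 3 mice loaded with forced swim stress (FSS, 11 min daily on 5 days) was compared, with 1 mouse on each array. All 6 were C57BL/6JJmsSlc mice aged 10 to 11 weeks in the sample labels, males by the methods of the study, and no transgene or drug is named for either group. By the paper, the mice had a tail suspension test after the last swim, and the hippocampus was collected on a later day. For its plot of swim stress, the paper used a random choice of the mice put on arrays. Values are log2 levels after robust multi-array averaging (RMA), so a difference of 1 is a doubling. The comparison asks whether repeated swim stress went with another level of the release machinery. RNA of dissected hippocampus tissue was measured, so fewer cells of a type and less RNA per cell cannot be told apart, and most presynaptic proteins of fibers that enter the hippocampus are made from RNA in cell bodies elsewhere.

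Vesicles at glutamate synapses are loaded by the transporters VGLUT1, VGLUT2 and VGLUT3. SNARE proteins on vesicle and plasma membrane zip together to drive fusion, synaptotagmins bind calcium and complexins clamp and then aid the assembled SNAREs. RIM, Munc13, Bassoon and Piccolo build the active zone where this happens. In the hippocampus VGLUT1 serves granule and pyramidal cells, whereas VGLUT2 is best known from thalamus, hypothalamus and brainstem.

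The array medians over all 28944 rows differed by at most 0.0322. The median granule cell marker had a level at percentile 74.4 of all genes and the median pyramidal cell marker at percentile 80.9. For markers listed for neocortex and for interneurons the values were 76.9 and 79.5. These levels thus do not tell hippocampus from neighbouring tissue. The arrays differed in the spread of their values, with an SD over all rows of 2.22 to 2.23 in control mice 1 and 2 and FSS mouse 2 and of 2.26 to 2.27 in the other 3 mice. The 9 microglial markers had a mean log2 level of 8.59 to 8.74 in control mice and 8.75 to 8.84 in FSS mice, with 3 of 9 higher and 0 lower at an unadjusted limma p under 0.05. By the same rule 2.49% of all rows were higher and 2.66% lower. Of 10 astrocyte markers 3 were higher and 2 lower, and of 9 oligodendrocyte markers 0 were higher and 0 lower. Of 9 endothelial markers 0 were higher and 1 lower. Of 10 meningeal and of 9 choroid plexus markers 1 each was higher and 0 lower. The part of microglial RNA, or of RNA from these other cells, in the differences of vesicle genes was not tested.

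Across the 47 genes, 1 was higher in FSS mice, 1 was lower and 45 did not pass an unadjusted p of 0.05 from limma, a linear model that moderates the variance of each gene with that of all others. Of all 21789 rows tested, 2.49% were higher and 2.66% lower by the same rule, so that the members were called about as often as any gene. Of the members, 0 passed the thresholds of the study (a log2 fold change over 0.5 in size with an unadjusted p under 0.05), against 0.0688% of all rows. By limma, 0 members and 0% of all rows passed an adjusted p of 0.05, and the smallest adjusted p of a member was 0.943. The 47 genes had a median log2 fold change of 0.0011, beside 0.0039 for all genes. Of the members 24 lay above 0 and 23 below. Their log2 fold changes ran from -0.21 (Cplx3) to 0.11 (Slc17a8).

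**Figure D1:**
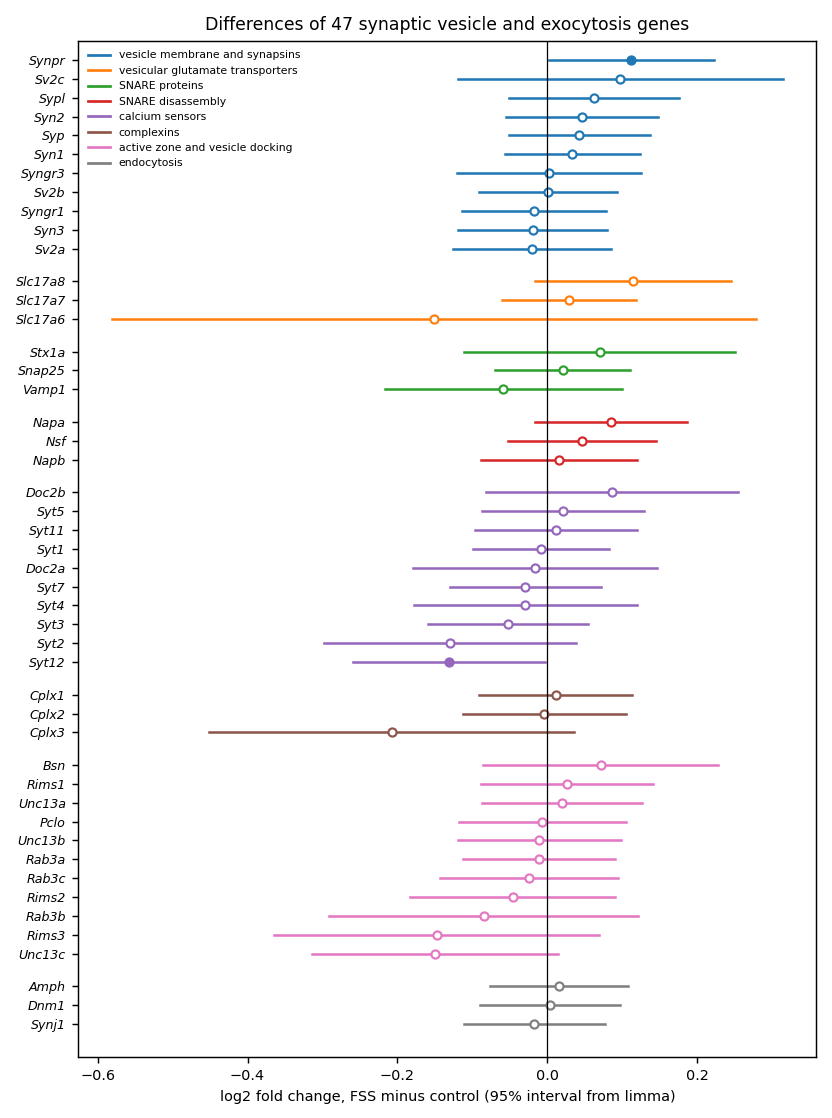
Log2 difference of FSS from control mice (x axis) for each of the 47 measured genes (y axis), coloured by role. Circles are estimates, with Synpr and Syt12 filled (unadjusted limma p under 0.05), and lines are 95% intervals from limma, which are widest for Slc17a6 (-0.58 to 0.28).

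For the bright genes the limma intervals of the difference in RMA level were narrow. Of the 47 genes, 28 had a level above percentile 90 of all genes. Their median standard error was 0.043, against 0.045 for the 1994 brightest of all genes and 0.062 for all genes. The 95% interval lay within -0.2 to 0.2 for 27 of these 28 genes (96.4%) and for 33 of all 47 (70.2%). Vamp1 was the bright gene whose interval did not. The same held for 89.1% of the 1994 brightest genes and 48.6% of all genes, so narrow intervals are common to bright genes. A p above the threshold does not show equal levels. The intervals give the sizes of difference in RMA level that these mice allow under the deposited scaling. These intervals are not adjusted for the number of genes and do not cover the choice of array scaling.

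Synapsins and integral vesicle proteins were measured by 11 genes, of which Synpr rose and 10 did not pass. Synpr encodes synaptoporin, a relative of synaptophysin that is known from the mossy fiber terminals of granule cells. Its levels were 9.84, 9.74 and 9.75 in control mice and 9.90, 9.91 and 9.85 in FSS mice. The groups did not overlap, although control mouse 1 and FSS mouse 3 nearly met. The log2 fold change was 0.11 (standard error 0.046, 95% interval 0.0019 to 0.22, unadjusted p = 0.0471, adjusted p = 0.943 by limma). The exact two-sided permutation test gave p = 0.1, the smallest that 3 mice against 3 allow. With quantile normalization the log2 fold change of Synpr was 0.095 with a limma p of 0.0996, and the gene passed without control mouse 1 but not without any 1 of the other mice.

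Granule cell markers moved with the groups in the same direction as Synpr. The mean log2 level of 10 such markers was 9.25, 9.09 and 9.17 in control mice and 9.27, 9.27 and 9.28 in FSS mice, and 3 of 10 were higher at an unadjusted limma p under 0.05 and 0 lower (Prox1, Trpc6 and Plk5). By the same rule 2.49% of all rows were higher and 2.66% lower. Prox1, the transcription factor of granule cell identity, had a log2 fold change of 0.15. The markers were not compared under other scalings of the arrays. The part of granule cell RNA in the Synpr difference was not tested.

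The synapsins coat the vesicle surface and tether vesicles in the reserve pool. Syn1 had levels of 12.02, 12.01 and 12.00 in control mice and 12.05, 12.04 and 12.04 in FSS mice, a log2 fold change of 0.034 with a 95% interval from -0.057 to 0.12. Syn2 and Syn3 had log2 fold changes of 0.047 and -0.020. Syp, the gene of synaptophysin, had levels of 12.43, 12.47 and 12.48 in control mice and 12.50, 12.50 and 12.51 in FSS mice. Its log2 fold change was 0.043 (95% interval -0.051 to 0.14).

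The SV2 proteins are vesicle glycoproteins. Sv2a had a log2 fold change of -0.021 (95% interval -0.13 to 0.085) and Sv2b one of 0.0011 (-0.091 to 0.093). Sv2c, which is known from the basal ganglia, varied more, with levels of 8.29, 8.41 and 8.47 in control mice and 8.64, 8.32 and 8.50 in FSS mice. FSS mouse 1 was the highest and control mouse 1 the lowest, and the groups overlapped. FSS mice differed by 0.098 on the log2 scale (95% interval -0.12 to 0.31). The synaptogyrins Syngr1 and Syngr3 had log2 fold changes of -0.018 and 0.0022, and Sypl, a synaptophysin-like gene of many tissues, one of 0.062.

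The vesicular glutamate transporters differed most in how steady they were. Slc17a7, which encodes VGLUT1, had levels of 12.80, 12.79 and 12.79 in control mice and 12.82, 12.83 and 12.83 in FSS mice. The groups did not overlap, yet the difference of 0.029 was below its limma standard error of 0.038, and the 95% interval in folds ran from 0.959 to 1.09. Slc17a8, which encodes VGLUT3 of some interneurons and serotonergic fibers, was dim at percentile 33.5 of all genes. Its levels were 6.59, 6.47 and 6.57 in control mice and 6.65, 6.60 and 6.73 in FSS mice, with groups that nearly touched. The difference was 0.11 on the log2 scale (limma standard error 0.055, unadjusted p = 0.0766). Slc17a6, which encodes VGLUT2, had levels of 7.98, 8.70 and 8.51 in control mice and 8.34, 8.08 and 8.32 in FSS mice. All FSS mice lay inside the range of the control mice. The log2 fold change of Slc17a6 was -0.15 (limma standard error 0.18, unadjusted p = 0.43), and its range over the mice, 0.72, was wider than that of 98.6% of all genes.

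**Figure D2:**
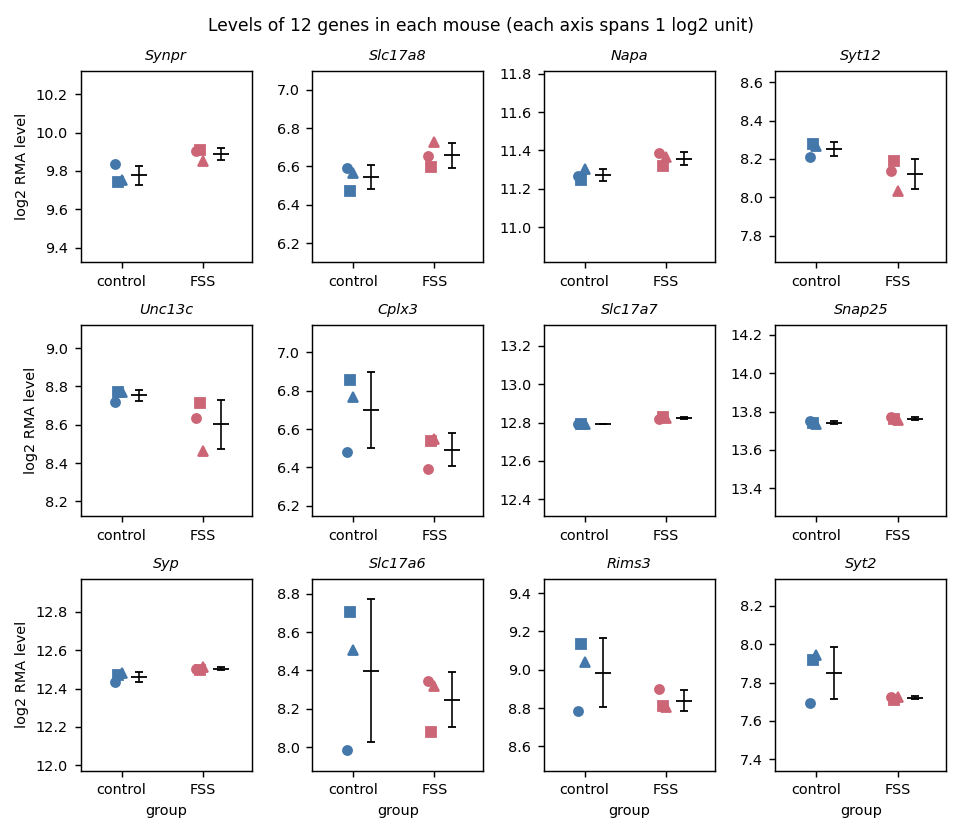
Log2 RMA level (y axis, 1 log2 unit in each panel) of 12 genes in control and FSS mice (x axis). Circles, squares and triangles are mice 1, 2 and 3, which were not taken as pairs, and black bars mark the group mean and SD. Slc17a6 spreads from 7.98 to 8.70 among control mice while Slc17a7 lies between 12.79 and 12.83 in all 6.

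SNARE genes did not pass the test. Snap25, a plasma membrane SNARE, had levels of 13.75, 13.74 and 13.74 in control mice and 13.77, 13.76 and 13.76 in FSS mice. Although the groups did not overlap, the log2 fold change was 0.021 (95% interval -0.070 to 0.11) and turned to -0.0036 with cyclic loess. Stx1a, the gene of syntaxin 1A, had levels of 8.94, 9.12 and 9.05 in control mice and 9.24, 9.05 and 9.03 in FSS mice, so that FSS mouse 1 alone was above the control range, and the log2 fold change was 0.070 (standard error 0.076). Vamp1, which encodes the vesicle SNARE synaptobrevin 1, had levels of 10.24, 10.47 and 10.37 in control mice and 10.25, 10.32 and 10.33 in FSS mice. FSS mice lay within the control range (log2 fold change -0.058, 95% interval -0.22 to 0.10).

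The genes that take used SNARE complexes apart were all measured by bright rows, and 3 of 3 lay above 0 without passing. Nsf encodes the ATPase and Napa and Napb its adaptors alpha-SNAP and beta-SNAP. Napa had levels of 11.27, 11.24 and 11.30 in control mice and 11.38, 11.32 and 11.37 in FSS mice. FSS mice were above control mice also with quantile normalization and cyclic loess, and the log2 fold change was 0.085 (limma standard error 0.043, unadjusted p = 0.0863). For Nsf the log2 fold change was 0.046 (95% interval -0.052 to 0.14) and for Napb 0.016 (-0.089 to 0.12).

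Among 10 genes of the synaptotagmin and Doc2 families, most of which encode calcium sensors, 1 was lower in FSS mice, 0 were higher and 9 did not pass. Syt1, the fast sensor of forebrain synapses, had levels of 13.28, 13.27 and 13.28 in control mice and 13.26, 13.28 and 13.26 in FSS mice. The groups overlapped, and its range of 0.025 over all mice lay at percentile 0.0602 of all genes (log2 fold change -0.0085, 95% interval -0.10 to 0.083). The lower gene was Syt12, which encodes a synaptotagmin that does not bind calcium. Its levels were 8.21, 8.28 and 8.27 in control mice and 8.14, 8.19 and 8.03 in FSS mice. Every FSS mouse was below every control mouse, FSS mouse 3 by most, and the log2 fold change was -0.13 (standard error 0.054, 95% interval -0.26 to -0.0036, unadjusted p = 0.0453, adjusted p = 0.943 by limma, exact two-sided permutation p = 0.1). Without FSS mouse 3 it was -0.089 with a limma p of 0.146, and it passed without FSS mouse 2 but not without any 1 of the other mice. With the class of array spread as a block, the value was -0.12 and Syt12 did not pass either.

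Syt2, the sensor of fast-spiking interneurons and of brainstem synapses, had levels of 7.70, 7.92 and 7.94 in control mice and 7.73, 7.71 and 7.73 in FSS mice. Control mice 2 and 3 stood above the other 4 mice, which were nearly level (log2 fold change -0.13, standard error 0.071, limma unadjusted p = 0.11). The remaining synaptotagmins Syt3, Syt4, Syt5, Syt7 and Syt11 had log2 fold changes from -0.052 to 0.021. Doc2a and Doc2b, high-affinity calcium sensors that are linked to spontaneous and asynchronous release, had log2 fold changes of -0.016 and 0.087.

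Complexin genes did not pass. Cplx1 and Cplx2, the complexins of most forebrain synapses, had log2 fold changes of 0.011 (95% interval -0.091 to 0.11) and -0.0037 (-0.11 to 0.10), and both changed sign under other settings. Cplx3, known from retinal ribbon synapses and from the deepest layer of the neocortex, was dim at percentile 33.4. Its levels were 6.48, 6.86 and 6.77 in control mice and 6.39, 6.54 and 6.55 in FSS mice. Control mice 2 and 3 were the highest and control mouse 1 lay among the FSS mice. The log2 fold change was -0.21 (limma standard error 0.10, unadjusted p = 0.0833).

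Of 11 genes of the active zone and of docking, 0 passed. Rab3a, the small GTPase of synaptic vesicles, had a log2 fold change of -0.011 (95% interval -0.11 to 0.090), Rab3b one of -0.085 (-0.29 to 0.12) and Rab3c one of -0.024 (-0.14 to 0.094). The scaffolds Bsn (Bassoon) and Pclo (Piccolo) had log2 fold changes of 0.071 (-0.085 to 0.23) and -0.0067 (-0.12 to 0.11). Rims1, which links vesicles to calcium channels, had a log2 fold change of 0.027 and Rims2 one of -0.046. Rims3, the gene of a short RIM protein, had levels of 8.79, 9.13 and 9.04 in control mice and 8.90, 8.81 and 8.80 in FSS mice. Again control mice 2 and 3 were the highest and control mouse 1 the lowest (log2 fold change -0.15, standard error 0.091, limma unadjusted p = 0.151).

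The Munc13 genes prime vesicles for fusion. Unc13a had a log2 fold change of 0.020 (95% interval -0.087 to 0.13) and Unc13b one of -0.010. For Unc13c, which is best known from the cerebellum, the brightest row had levels of 8.72, 8.77 and 8.77 in control mice and 8.63, 8.71 and 8.46 in FSS mice, a log2 fold change of -0.15 (limma standard error 0.069, unadjusted p = 0.0683) without overlap. The 6 other rows of Unc13c spread more within the groups. On the second brightest, control mice had levels of 8.04, 8.69 and 8.52 and FSS mice 8.66, 8.09 and 8.15, so that control mouse 1 was the lowest and FSS mouse 1 stood with control mice 2 and 3. The log2 fold changes of these 6 rows were -0.29 to -0.054 with standard errors of 0.18 to 0.27. Unc13a has 3 rows with log2 fold changes of 0.020, -0.0054 and -0.10, the last from the dimmest row (limma unadjusted p = 0.0641), and their mean had the opposite sign to the brightest row.

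Genes of membrane retrieval after fusion had the smallest median range over the mice of the 8 roles, 0.039. Dnm1, the gene of the neuronal dynamin that pinches off vesicles, had levels of 12.84, 12.87 and 12.83 in control mice and 12.87, 12.83 and 12.85 in FSS mice (log2 fold change 0.0040, 95% interval -0.089 to 0.097). Amph, which encodes the dynamin partner amphiphysin, had a log2 fold change of 0.015 (-0.077 to 0.11). Synj1, which encodes the phosphatase synaptojanin that uncoats vesicles, had one of -0.017 (-0.11 to 0.077). For these 3 genes the groups overlapped, and their ranges over all mice were 0.036 to 0.048.

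In 8 genes the FSS mice lay above the control mice without overlap, namely Syn1, Syp, Synpr, Slc17a7, Slc17a8, Snap25, Nsf and Napa, and in Syt12 and Unc13c they lay below. Among all rows 6.02% had FSS mice above without overlap and 4.25% below. Among the 1994 brightest of all genes, where 6 of the 8 lie, 10.8% had FSS mice above without overlap. The separation depended on the scaling of the arrays for all of the 8 but Napa. With quantile normalization or cyclic loess, alternatives chosen for this count after its value was seen, Napa was the only one of the 47 genes with FSS mice above (2.13%, against 5.4% and 5.41% of all rows). FSS mice were then below in 3 genes with quantile normalization (Syt3, Syt12 and Unc13c) and in 5 with cyclic loess (these with Sv2b and Syt1). These were 6.38% and 10.6% of the 47 genes, against 5.13% and 5.35% of all rows. The 47 genes then had a median of -0.020 with quantile normalization and -0.022 with cyclic loess.

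The number of genes called also depended on the test. The methods of the study name Student's test for equal variances and the Mann-Whitney test for unequal ones, and tie neither to the arrays. Student's test without moderation, here called the methods' t-test, gave an unadjusted p under 0.05 for 6 higher members and 0 lower ones. The higher members were Slc17a7, Syn1, Snap25, Napa, Synpr and Syp. By that test 0 members passed Benjamini-Hochberg adjustment over all rows. The Mann-Whitney test was not run. The 6 higher genes were 12.8% of the 47, and by the same test 2.96% of all rows were higher and 2.04% lower. All of the 6 but Synpr had a level above percentile 90 of all genes. Of the 1994 brightest genes 1397 had a log2 fold change above 0 and 597 below. The share of these called by the methods' t-test was not computed. For Slc17a7 the standard error was 0.0027 by that test and 0.038 by limma, since the SD of its levels was 0.0011 among the control mice and 0.0046 among the FSS mice.

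**Figure D3:**
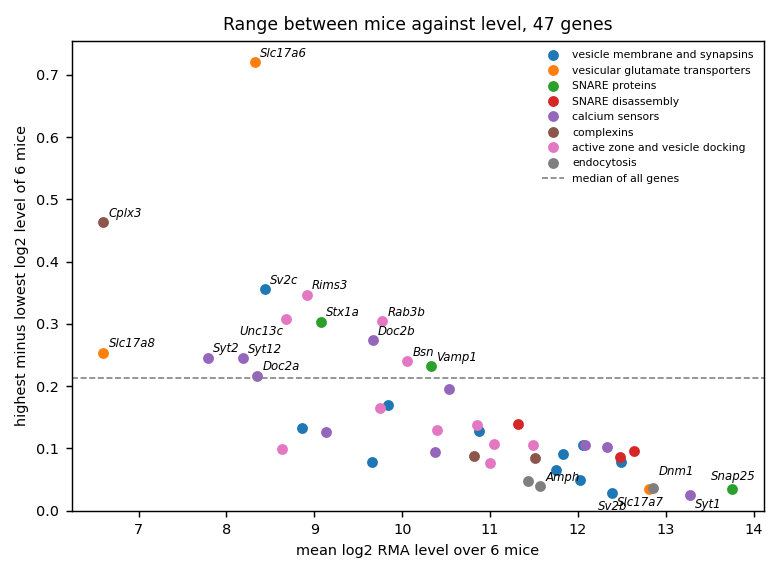
Range over the 6 mice (highest minus lowest log2 level, y axis) against the mean log2 level (x axis) of the 47 genes, coloured by role. The dashed line is the median range of all genes, 0.21, and 14 genes lie above it, with Slc17a6 at 0.72 and Cplx3 at 0.46.

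The range over all 6 mice, which takes in any difference between the groups, was above that of the median gene in 14 of the 47 genes, namely Sv2c, Slc17a6, Slc17a8, Stx1a, Vamp1, Syt2, Syt12, Doc2a, Doc2b, Cplx3, Rab3b, Rims3, Unc13c and Bsn. Of these 14, the groups did not overlap in Slc17a8, Syt12 and Unc13c and overlapped in the other 11. Control mouse 2 was the highest in 7 of the 14 and control mouse 1 the lowest in 6. In 3 of the 14, Slc17a8, Doc2b and Bsn, control mouse 2 was the lowest. Over all 47 genes, control mouse 1 was the lowest of the 6 mice in 31.9% and the highest in 4.26%, whereas it was the lowest in 14.6% and the highest in 14.7% of all genes. Control mouse 2 was the highest in 27.7% of the 47 genes and in 21% of all genes, and control mouse 3 was the highest in 23.4% and 12%. The median deviation of the 47 genes from their mean over the mice was -0.025 in control mouse 1. Control mouse 1 was the lowest control mouse in Cplx3, Slc17a6, Rims3 and Syt2, so leaving it out had to raise their control means. A count of lower genes in that fit is thus no test of the groups. Leaving out any 1 of the other mice gave 0 to 2 lower members at an unadjusted limma p under 0.05. Without control mouse 1, 4 genes (8.51%) were lower in FSS mice by the same rule, against 2.65% of all rows. They were Cplx3 (log2 fold change -0.32), Slc17a6 (-0.36), Rims3 (-0.25) and Syt2 (-0.21), and Synpr was the 1 higher gene (2.13%, against 2.9% of all rows). Without control mouse 2 the log2 fold change of Slc17a6 was 0.0013.

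**Figure D4:**
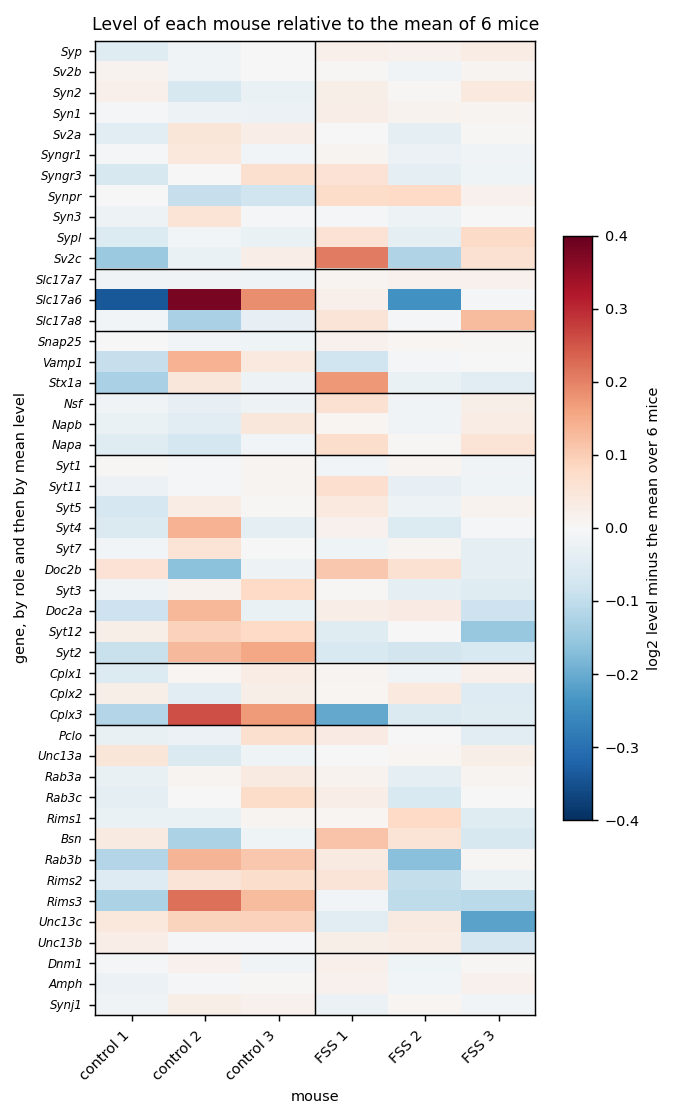
Log2 level of each mouse (x axis) minus the mean over 6 mice for the 47 genes (y axis), red above and blue below the mean, with black lines between roles and between the groups. Slc17a6 stands out with its lowest level in control mouse 1 (7.98) and its highest in control mouse 2 (8.70).

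Markers listed for neighbouring regions and for interneurons varied among the mice as well. The mean log2 level of 9 neocortical markers was 9.38, 9.49 and 9.46 in control mice and 9.45, 9.37 and 9.41 in FSS mice, so that control mouse 2 was the highest and control mouse 1 and FSS mouse 2 the lowest, as in Slc17a6. The range was 9.38 to 9.49 in control mice and 9.37 to 9.45 in FSS mice. Of the 9 markers, 1 was higher in FSS mice and 0 lower. By mouse, 4 of the 9 were highest in control mouse 2, whereas Rorb and Cck were lowest there. For 11 markers of thalamus and midline neurons other than Slc17a6, the mean was 8.31, 8.38 and 8.27 in control mice and 8.53, 8.17 and 8.27 in FSS mice, with FSS mouse 1 the highest, and 0 of 11 passed. Interneuron markers had means of 9.69, 9.80 and 9.77 in control mice and 9.78, 9.68 and 9.74 in FSS mice, and 0 of 10 passed. As in the neocortical list, control mouse 2 had the highest mean and control mouse 1 and FSS mouse 2 the lowest. Single interneuron markers differed in this, and 3 of the 10 were highest in control mouse 2. Gad1, Gad2, Lhx6 and Dlx1 were highest in FSS mouse 1, Pvalb and Npy in FSS mouse 3 and Kcnc1 in control mouse 3. The part of such regions or cells in the spread of Slc17a6, Cplx3, Rims3, Syt2 and Rab3b was not tested.

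**Figure D5:**
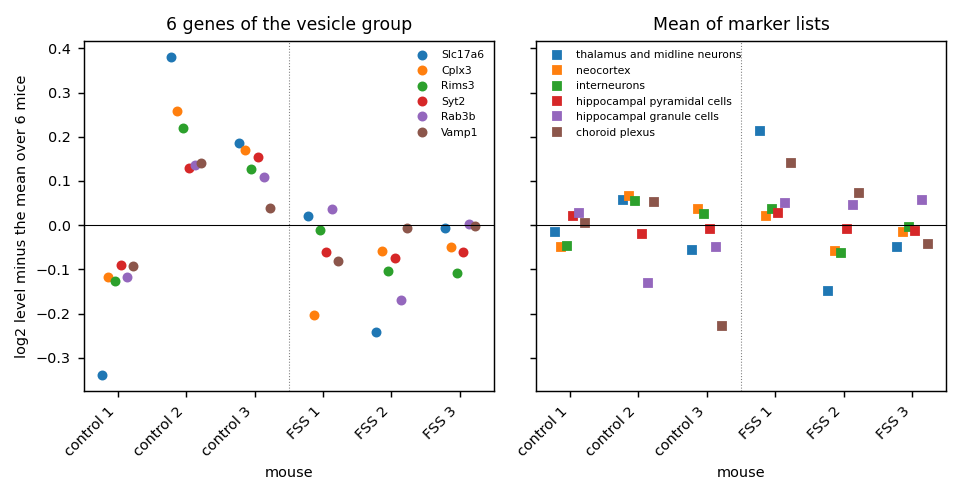
Log2 level minus the mean over 6 mice (y axis) in each mouse (x axis) for 6 variable genes (left) and for the mean of 6 marker lists (right, thalamus without Slc17a6). All 6 genes, picked from the 14 variable ones, are below their mean in control mouse 1 and above it in control mouse 2. Control mouse 2 is instead the lowest in 3 others of the 14, Slc17a8, Doc2b and Bsn. The neocortical markers are lowest in FSS mouse 2 (9.37) and highest in control mouse 2 (9.49).

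Beyond the 47 genes, 106 of 114 other genes of the vesicle cycle were measured. Of these, 3 were higher in FSS mice and 0 lower at an unadjusted limma p under 0.05, and 103 did not pass (median log2 fold change 0.017). By the same rule 2.49% of all rows were higher and 2.66% lower. Stxbp6 encodes amisyn, a SNARE-binding protein. Its levels were 10.74, 10.60 and 10.66 in control mice and 10.81, 10.85 and 10.80 in FSS mice, without overlap, and the log2 fold change was 0.15 (standard error 0.050, unadjusted p = 0.0188, adjusted p = 0.943 by limma). It did not pass without control mouse 2 (0.12) or FSS mouse 2 (0.14).

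Ap2s1, the gene of the small subunit of the clathrin adaptor AP-2, had levels of 10.78, 10.78 and 10.84 in control mice and 10.90, 10.89 and 10.92 in FSS mice (log2 fold change 0.10, standard error 0.041, limma unadjusted p = 0.0416). Ston2, which encodes stonin 2, an adaptor that sorts synaptotagmin into endocytic vesicles, had levels of 8.90, 8.88 and 8.86 in control mice and 8.98, 9.04 and 8.95 in FSS mice (log2 fold change 0.11, standard error 0.044, limma unadjusted p = 0.0404). In both genes the groups did not overlap. Ap2s1 passed without control mouse 3 but not without any 1 of the other mice, and Ston2 passed without FSS mouse 3 but not without any 1 of the others. With cyclic loess neither passed (0.082 for Ap2s1 and 0.095 for Ston2). Among the 5 functional classes of these other genes the median log2 fold change ran from -0.0021 for calcium sensors and complexins to 0.027 for active zone and docking proteins.

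The postsynaptic density lies across the cleft from the active zone. Of its 33 measured genes, 0 passed an unadjusted limma p of 0.05 in either direction, against 2.49% of all rows higher and 2.66% lower. Their median log2 fold change was 0.019. The 1994 brightest of all genes had a median of 0.019 and the 28 bright vesicle genes one of 0.0077.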

How the data were processed

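Values are log2 levels that the authors deposited, made by RMA in the Affymetrix Expression Console from GeneChip Mouse Gene 1.0 ST arrays, as the methods and the submitters' processing notes state. The genome build is not given in the sources used here, and no coordinates or sequences were used. Of 28944 rows, 21789 carry 1 gene symbol by the platform annotation, 1621 several and 5534 none. The 47 members were matched by gene ID to RefSeq (GRCm38.p6), with 0 symbols changed. FSS minus control was fitted across all 21789 rows with limma 3.58.1 (lmFit, eBayes) in R 4.3.3 without covariates, with Benjamini-Hochberg adjustment over all rows. The fit was tested on simulated data. The number of arrays limits the precision. The replicate numbers were not taken as pairs.

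The members and lists were chosen with earlier results of these data known. Named with values were members with an unadjusted p under 0.05, those without overlap between groups, the 5 largest rises and falls, and core members of each role, and other members were added. Of the other vesicle genes, those with p under 0.05 were named.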

Additional observations from a re-analysis of the deposited data

How the results depend on the processing

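The higher members at an unadjusted p under 0.05 numbered 1 in limma, 6 by the methods' t-test, 2 with an intensity trend in the variance, and 0 with array weights, quantile normalization, cyclic loess, the replicate block or a p under 0.01. They numbered 0 to 1 without each mouse. The lower members numbered 1 in limma, 2 with the intensity trend, array weights or without dim rows, 0 by the methods' t-test, with the array spread block or at a p under 0.01, and 0 to 4 without each mouse, the 4 being found without control mouse 1. Over the same settings other than a p under 0.01, 1.71% to 4.57% of all rows were higher and 1.79% to 4.23% lower, with 2.96% higher by the methods' t-test and 2.65% lower without control mouse 1. No member passed the thresholds of the study under any of these settings, and 0 members passed an adjusted p of 0.05 in any fit. Of the other vesicle cycle genes, the higher numbered 6 with the trend, 5 without dim rows, 1 with cyclic loess, 1 with the replicate block, 0 at a p under 0.01 and 0 to 3 without each mouse. The lower numbered 2 by the methods' t-test or with the trend, 1 with quantile normalization, cyclic loess or the replicate block, and 0 to 2 without each mouse. Of all rows, 99 were higher and 101 lower at a p under 0.01, 229 of 12020 were lower without dim rows, and 389 to 922 were lower without each mouse, with 922 without control mouse 3 and 911 without FSS mouse 2. The median of the members was -0.020 with quantile normalization and -0.022 with cyclic loess. Genes without overlap and with FSS mice above numbered 1 with either (5.4% and 5.41% of all rows), and those with FSS mice below numbered 5 with cyclic loess (5.35% of all rows).

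Signs turned only in differences that had not passed an unadjusted p of 0.05 in the main limma fit. Of these genes, Snap25 passed by the methods' t-test and Slc17a6 passed without control mouse 1. With cyclic loess, log2 fold changes were -0.0036 for Snap25, -0.011 for Cplx1, -0.0022 for Unc13a and -0.019 for Dnm1. With quantile normalization they were -0.0073 for Cplx1 and -0.025 for Dnm1. With the array spread block they were -0.0024 for Cplx1 and 0.00059 for Cplx2. Rab3a had 0.00024 with array weights, and Unc13a had -0.030 as the mean of its rows. Without each mouse the range was -0.36 to 0.0013 for Slc17a6, -0.013 to 0.029 for Cplx1, -0.025 to 0.020 for Cplx2, -0.029 to 0.0065 for Rab3a, -0.0071 to 0.058 for Rims1, -0.0053 to 0.048 for Unc13a, -0.024 to 0.023 for Pclo and -0.0048 to 0.014 for Dnm1. The cause was not tested.

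The replicate numbers were checked for pairing. Deviations of same-numbered mice from their group means had correlations of -0.048, 0.14 and 0.24 across rows. Those of the other combinations ran from -0.26 to 0.13, the highest being control mouse 1 with FSS mouse 2. With 3 mice per group these deviations depend on one another, so they cannot decide whether the numbers mark pairs. The main fit did not use the numbers as pairs. With the replicate block, 0 members were higher and 1 was lower (Cplx3, log2 fold change -0.21).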
